A study of Mus musculus with 6 samples.

Results

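Interferon response genes are the genes that cells switch on after an interferon binds its receptor, and they were followed here in mouse liver as a list of 32 names chosen by symbol. Of these, 30 were found in the count table of 20914 genes, while Mx1 and Mx2 were not matched there and were not analysed here. The list falls into 21 type I members (19 found) and 11 interferon gamma members (11 found), the second class made of the guanylate-binding proteins (Gbp), the immunity-related GTPases Iigp1, Irgm1 and Igtp, the immunoproteasome subunits Psmb8 and Psmb9, and the peptide transporter gene Tap1. Liver RNA was sequenced in 6 libraries, 3 labelled DOX and 3 labelled PBS. All 6 carry the genotype label BucheKI/KI-Hep, with CKI and Alb-Cre in the sample names; Buche is read here as butyrylcholinesterase, which the labels do not spell out. They share the labelled BDL treatment, so untreated liver is not among the groups. Neither BDL, which usually stands for bile duct ligation in liver studies, nor DOX, PBS or the name part S10D is spelled out in the labels, and the animals' age and sex are not given there. Cre under the albumin promoter acts in hepatocytes, whereas the RNA came from whole liver. Whether each library stands for its own animal is not said in the labels. The p-values therefore reflect how far these 6 libraries scatter, and part of that scatter may be technical.

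Total counts were 32826493 to 41102844 per library, and 13725 genes had enough counts to be tested. Bche, the gene of butyrylcholinesterase, stood at 969, 447 and 595 CPM (counts scaled to library size with TMM factors) in DOX replicates 1, 2 and 3, against 193, 245 and 194 CPM in PBS replicates 1, 2 and 3. Its log2 fold change of 1.67 (SE 0.27) did not pass the edgeR quasi-likelihood test (adjusted p = 0.106 over all genes), whereas DESeq2 called it (adjusted p = 2.9e-08), and the groups did not overlap. The 8 hepatocyte markers, albumin among them, summed to 88145 to 143996 CPM in DOX and to 74854 to 87598 CPM in PBS. None of them was at 0 in a library, and much of the sum came from 1 marker (mean 72448 CPM over the 6 libraries). All 30 members passed the filter on low counts in the fit over all genes, and each had a mean of at least 1 CPM over the 6 libraries.

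Type I interferons (alpha and beta) signal through the receptor chains Ifnar1 and Ifnar2 to a complex that holds STAT2 and IRF9 and binds the interferon-stimulated response element (ISRE). Interferon gamma, made mainly by T cells and NK cells, signals through Ifngr1 and Ifngr2 and acts on genes through the gamma-activated site (GAS). Most genes of the list answer to both interferons to some degree, and the division into classes follows the stronger known inducer. In liver, hepatocytes, Kupffer cells and endothelial cells all carry these receptors.

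Promoter sequences from RefSeq (GRCm38.p6) were matched by symbol for 25 of the 32 members. The 250 bases before the annotated start were searched on both strands for an ISRE core, GAAA and a second GAAA with any NN between them, and for a GAS core written as TTCNNNGAA; matches were allowed to overlap. The ISRE core was present for 15 of the 25 members (60%), made up of 9 of 16 type I and 6 of 9 interferon gamma members, against 3.46% of all 27025 genes with a promoter. The GAS core was present for 7 of 25 (28%), 3 of 16 type I and 4 of 9 interferon gamma members, against 8.13% of all genes. Among 59 other interferon-induced genes with a promoter, the ISRE core was present for 20 (33.9%) and the GAS core for 6 (10.2%). A match describes these letters only and is not evidence that a factor bound there. Below are stretches for 8 members, written 5′ to 3′ on the gene's strand, with matches to either core in capitals. Isg15, Ifit1, Ifit3, Ifit3b and Oas1a are type I members with their lowest value in DOX replicate 3, Bst2 is one with its lowest value in PBS replicate 2, and Gbp7 and Igtp show an ISRE and a GAS core close together.
Isg15, chr4:156200819-156200938, - strand: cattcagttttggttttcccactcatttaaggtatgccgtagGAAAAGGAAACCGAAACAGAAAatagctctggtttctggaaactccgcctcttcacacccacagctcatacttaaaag
Ifit1, chr19:34640769-34640870, + strand: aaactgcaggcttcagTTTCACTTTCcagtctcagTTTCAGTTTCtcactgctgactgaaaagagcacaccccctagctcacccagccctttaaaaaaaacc
Ifit3, chr19:34583329-34583528, + strand: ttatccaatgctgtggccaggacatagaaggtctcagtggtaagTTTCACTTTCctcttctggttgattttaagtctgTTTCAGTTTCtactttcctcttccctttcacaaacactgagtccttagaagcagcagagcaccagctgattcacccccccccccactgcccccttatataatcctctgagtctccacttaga
Ifit3b, chr19:34607757-34607956, + strand: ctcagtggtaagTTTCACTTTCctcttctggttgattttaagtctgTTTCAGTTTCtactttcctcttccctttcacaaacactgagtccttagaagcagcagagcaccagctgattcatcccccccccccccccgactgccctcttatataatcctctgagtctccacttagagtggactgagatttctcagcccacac
Oas1a, chr5:120907526-120907645, - strand: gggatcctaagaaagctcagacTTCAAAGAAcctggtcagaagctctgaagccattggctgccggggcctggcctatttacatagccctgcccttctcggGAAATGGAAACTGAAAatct
Bst2, chr8:71537473-71537622, - strand: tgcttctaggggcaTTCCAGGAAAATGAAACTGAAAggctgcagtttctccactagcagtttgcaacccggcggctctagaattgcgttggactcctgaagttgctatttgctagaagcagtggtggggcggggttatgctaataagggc
Gbp7, chr3:142530216-142530335, + strand: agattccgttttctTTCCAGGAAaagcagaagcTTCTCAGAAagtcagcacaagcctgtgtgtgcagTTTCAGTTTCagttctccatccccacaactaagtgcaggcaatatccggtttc
Igtp, chr11:58199436-58199555, + strand: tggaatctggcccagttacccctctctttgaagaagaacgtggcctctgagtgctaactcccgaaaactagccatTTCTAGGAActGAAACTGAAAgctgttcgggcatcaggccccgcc

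In Isg15, 3 overlapping ISRE cores run together between 78 and 57 bases before the start. Ifit1, Ifit3 and Ifit3b each held a pair of separate cores, read here on the opposite strand as TTTCACTTTC and TTTCAGTTTC. The Ifit3 and Ifit3b stretches are closely alike: with the annotated starts shifted by 32 bases, 188 of 218 bases were identical (86.2%, compared base by base without gaps). In Bst2, the GAS core overlaps the first of its ISRE cores. Both genes of the Ifit3 pair, the Oas genes, the Gbp genes and the immunity-related GTPases have close relatives, and reads shared between relatives could have been split by the authors' counting, so their single levels are uncertain in that respect.

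None of the 30 members passed the test between DOX and PBS. In the edgeR quasi-likelihood fit, 0 reached an adjusted p under 0.05, with member values of 0.500 to 0.986, where 4 of all 13725 genes (0.0291%) passed. DESeq2 also called 0 of the 30, against 176 of 14828 genes (1.19%). At an unadjusted p under 0.05, edgeR gave 1 of the 30 members, Usp18, against 9.9% of all genes, and DESeq2 gave 0. The DOX and PBS libraries did not overlap for 2 of the 30, Usp18 and Bst2, against 16.9% of all genes. For 23 of the 30 members, the 95% interval of the fold change lay within 2-fold in either direction, as it did for 76.1% of all genes. The other 7 had wider intervals, all of them reaching beyond a 2-fold decrease.

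**Figure D1:**
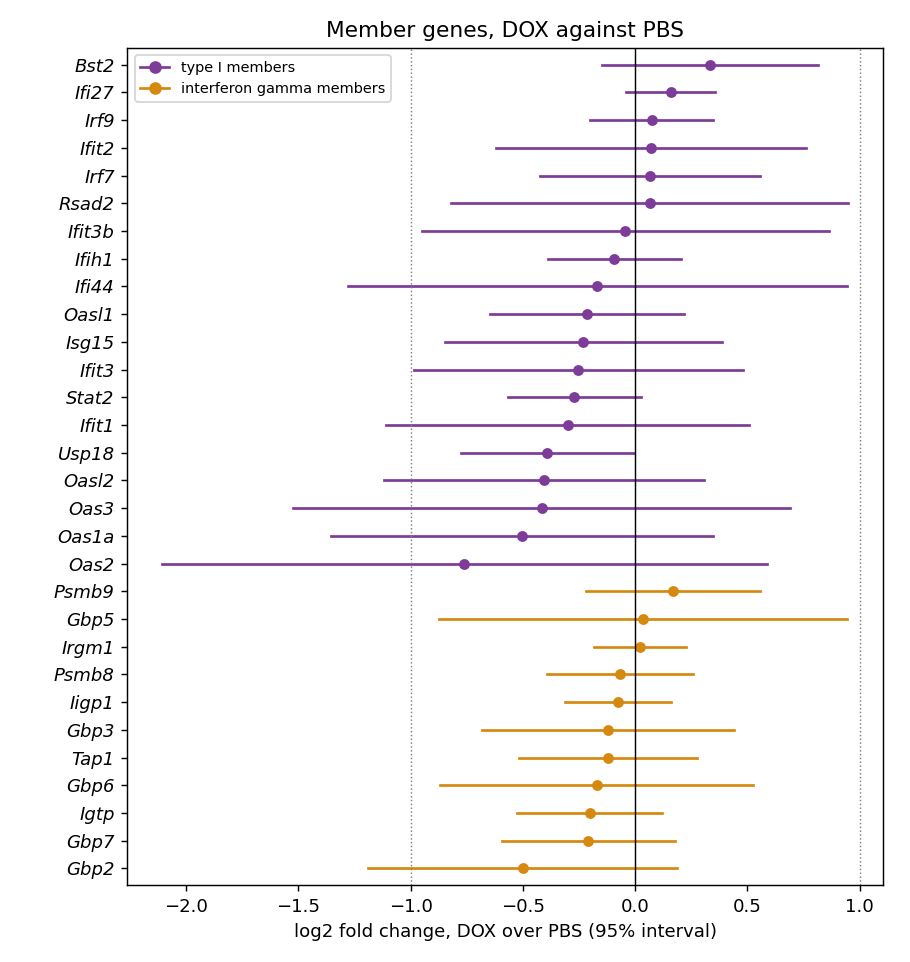
Log2 fold change of each of the 30 members, DOX over PBS, with its 95% interval from the edgeR fit (3 libraries each). Type I members are drawn above and interferon gamma members below, dotted lines mark 2-fold, and the intervals include 0 except for Usp18, whose upper end lies just under it.

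One DOX library stood apart within its group, and this touches each value below. DOX replicate 3 was the lowest of the 6 libraries for 25 of the 30 members (15 of 19 type I and 10 of 11 interferon gamma members), against 25.6% of all genes tested. The exceptions were Irf9, Rsad2, Ifi27, Bst2 and Gbp5. No member was lowest in DOX replicate 1, DOX replicate 2 or PBS replicate 3. DOX replicate 3 had the highest total of the 6 libraries (41102844 counts) and the lowest TMM factor (0.902). It also had the highest sum of the hepatocyte markers (143996 CPM), a sum that came largely from 1 marker. Close to it came PBS replicate 1 in total (40583148 counts) and DOX replicate 1 in the hepatocyte sum (136369 CPM). The part of these traits in the member values was not tested. In bulk tissue, fewer cells that express a gene and less RNA per cell cannot be told apart.

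**Figure D2:**
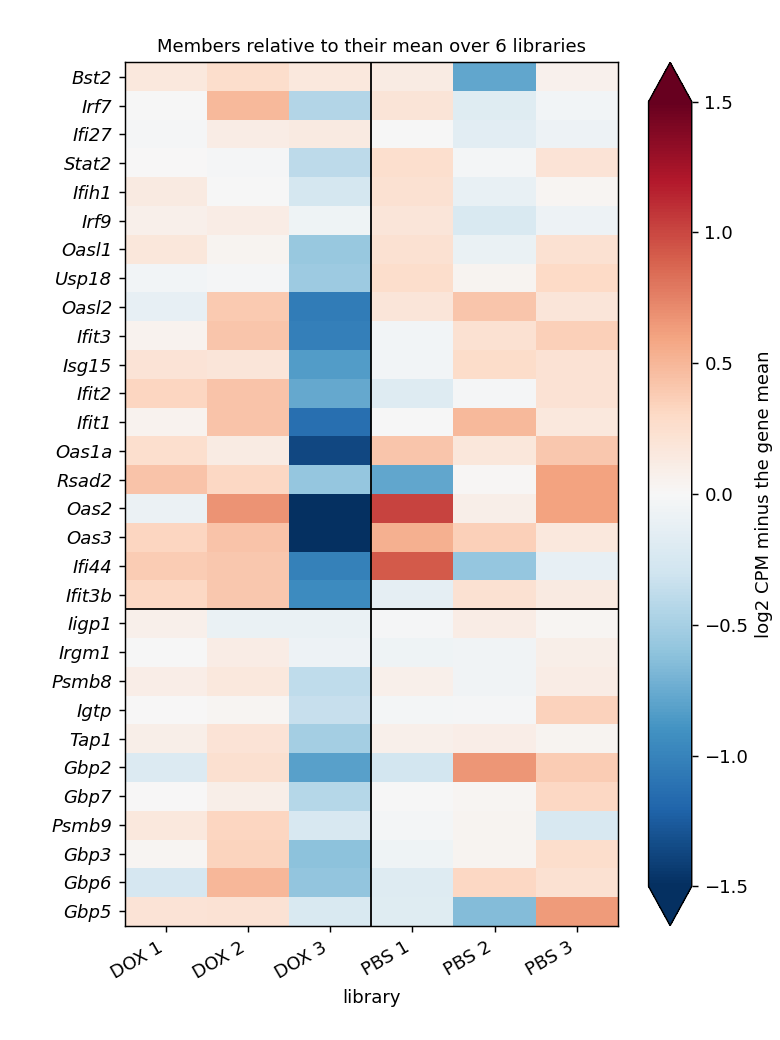
Log2 CPM of each member minus that gene's mean over the 6 libraries, with DOX libraries on the left and PBS libraries on the right, type I members above the line and interferon gamma members below it. The column of DOX replicate 3 is the lowest for 25 of the 30 members, and Bst2 is lowest in PBS replicate 2.

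Among the type I antiviral effectors, Isg15, a ubiquitin-like protein that is joined to other proteins, stood at 7.31, 7.18 and 3.54 CPM in DOX replicates 1, 2 and 3, against 6.16, 7.65 and 7.35 CPM in PBS replicates 1, 2 and 3. DOX replicates 1 and 2 lay within the PBS range, and DOX replicate 3 was below all PBS libraries. The log2 fold change was -0.23 (SE 0.27, adjusted p = 0.802). Ifit1, which binds foreign RNA at its capped end, had 4.78, 6.20 and 2.10 CPM in DOX, against 4.57, 6.41 and 5.13 CPM in PBS, and the groups overlapped (log2 fold change -0.30, SE 0.35). Ifit2 had 6.03, 6.47 and 2.83 CPM in DOX, against 4.22, 4.75 and 5.62 CPM in PBS. In this gene DOX replicates 1 and 2 were above all PBS libraries while DOX replicate 3 was below them. Ifit3, a partner of Ifit1 in the human complex, had 6.78, 8.71 and 3.21 CPM in DOX, against 6.34, 7.62 and 8.32 CPM in PBS. Its near copy Ifit3b had 1.41, 1.51 and 0.594 CPM in DOX, against 1.04, 1.33 and 1.26 CPM in PBS, and repeated the same order within DOX. None of the 4 Ifit genes passed (adjusted p = 0.805, 0.957, 0.820 and 0.982 for Ifit1, Ifit2, Ifit3 and Ifit3b). They lie within 1 stretch of chromosome 19 (34550694 to 34650009 in GRCm38).

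The oligoadenylate synthetases, which sense double-stranded RNA and activate RNase L, included the member with the largest negative log2 fold change. Oas2 had 1.87, 3.16 and 0.405 CPM in DOX, against 4.01, 2.12 and 3.02 CPM in PBS, and its lowest library, DOX replicate 3, rested on 15 counts. The log2 fold change was -0.76 with a 95% interval of -2.11 to 0.59 (adjusted p = 0.699). Oas3 had 2.69, 2.89 and 0.621 CPM in DOX, against 3.11, 2.75 and 2.41 CPM in PBS, and Oas1a had 4.24, 3.87 and 1.38 CPM in DOX, against 4.73, 3.99 and 4.71 CPM in PBS. For Oas3, DOX replicates 1 and 2 fell inside the PBS range, whereas for Oas1a DOX replicate 2 was just under it. The related Oasl2 had 6.64, 9.48 and 3.48 CPM in DOX, against 8.19, 9.62 and 8.16 CPM in PBS. Oasl1, which represses the translation of Irf7 in mouse cells, had 22.3, 20.3 and 13.3 CPM in DOX, against 23.05, 18.4 and 23.2 CPM in PBS. None of the 5 passed (adjusted p from 0.685 to 0.802).

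Rsad2, the viperin gene, whose product makes a chain-ending nucleotide, spanned 2.16 to 4.32 CPM in DOX and 1.87 to 4.89 CPM in PBS. Its lowest library was PBS replicate 1, and the groups lay across each other (log2 fold change 0.06, SE 0.39). Ifi44, an interferon-induced protein of the cytoplasm, had 2.35, 2.39 and 0.891 CPM in DOX, against 3.41, 1.21 and 1.66 CPM in PBS, and the PBS range was the wider of both.

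The next type I members are a sensor, transcription factors and an inhibitor of the pathway. Irf7, the factor that amplifies interferon alpha production, had 58.1, 81.9 and 43.1 CPM in DOX, against 66.6, 51.4 and 56.7 CPM in PBS. The highest and the lowest of the 6 values were both DOX libraries, and the log2 fold change was 0.07 (SE 0.21, adjusted p = 0.939). Irf9, the DNA-binding partner of STAT2, stood at 26.6 ± 1.61 CPM in DOX and 25.2 ± 3.72 CPM in PBS (SD, n = 3 each). Stat2 had 42.6, 41.9 and 32.3 CPM in DOX, against 50.5, 41.6 and 48.9 CPM in PBS, with a fold change of -0.27 on the log2 scale (SE 0.13, adjusted p = 0.523). Its groups overlapped only through PBS replicate 2. Ifih1, the MDA5 sensor of double-stranded RNA, stood at 35.4 ± 4.84 CPM in DOX and 37.7 ± 4.46 CPM in PBS. Usp18, the protease that removes Isg15 from proteins and blocks signalling at Ifnar2, had 9.53, 9.63 and 6.69 CPM in DOX, against 11.7, 10.1 and 12.1 CPM in PBS. All 3 DOX libraries were below all 3 PBS libraries, but the test was not passed (log2 fold change -0.39, SE 0.17, adjusted p = 0.500), and without DOX replicate 3 or without PBS replicate 1 or 3 its unadjusted p was also above 0.05.

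Bst2 and Ifi27 had positive log2 fold changes and did not share the low value of DOX replicate 3. Bst2, the tetherin that holds budding virus at the cell surface, had 96.0, 102.9 and 96.2 CPM in DOX, against 93.8, 50.3 and 90.2 CPM in PBS. All 3 DOX libraries were above all 3 PBS libraries, by a small margin over PBS replicates 1 and 3, and the mean difference rested largely on PBS replicate 2. The log2 fold change was 0.33 (SE 0.21, adjusted p = 0.625). The 6 liver endothelial markers summed to 168, 86.8 and 161 CPM in DOX replicates 1, 2 and 3. In PBS replicates 1, 2 and 3 they summed to 105, 35.1 and 106 CPM, so PBS replicate 2 was lowest there too. DOX replicate 2, the highest library for Bst2, had a lower endothelial sum than PBS replicates 1 and 3. Macrophage, stellate cell and plasmacytoid dendritic cell markers also had their lowest sums in PBS replicate 2. Most of the plasmacytoid dendritic cell sum came from 1 marker, with a mean of 8.79 CPM over the 6 libraries. The part of these cells in the Bst2 value was not tested. Ifi27, a small protein reported at mitochondrial membranes, had 44.4, 48.6 and 49.5 CPM in DOX, against 44.7, 40.4 and 42.6 CPM in PBS, and was the 1 member with its highest value in DOX replicate 3 (log2 fold change 0.16, SE 0.09, adjusted p = 0.575).

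**Figure D3:**
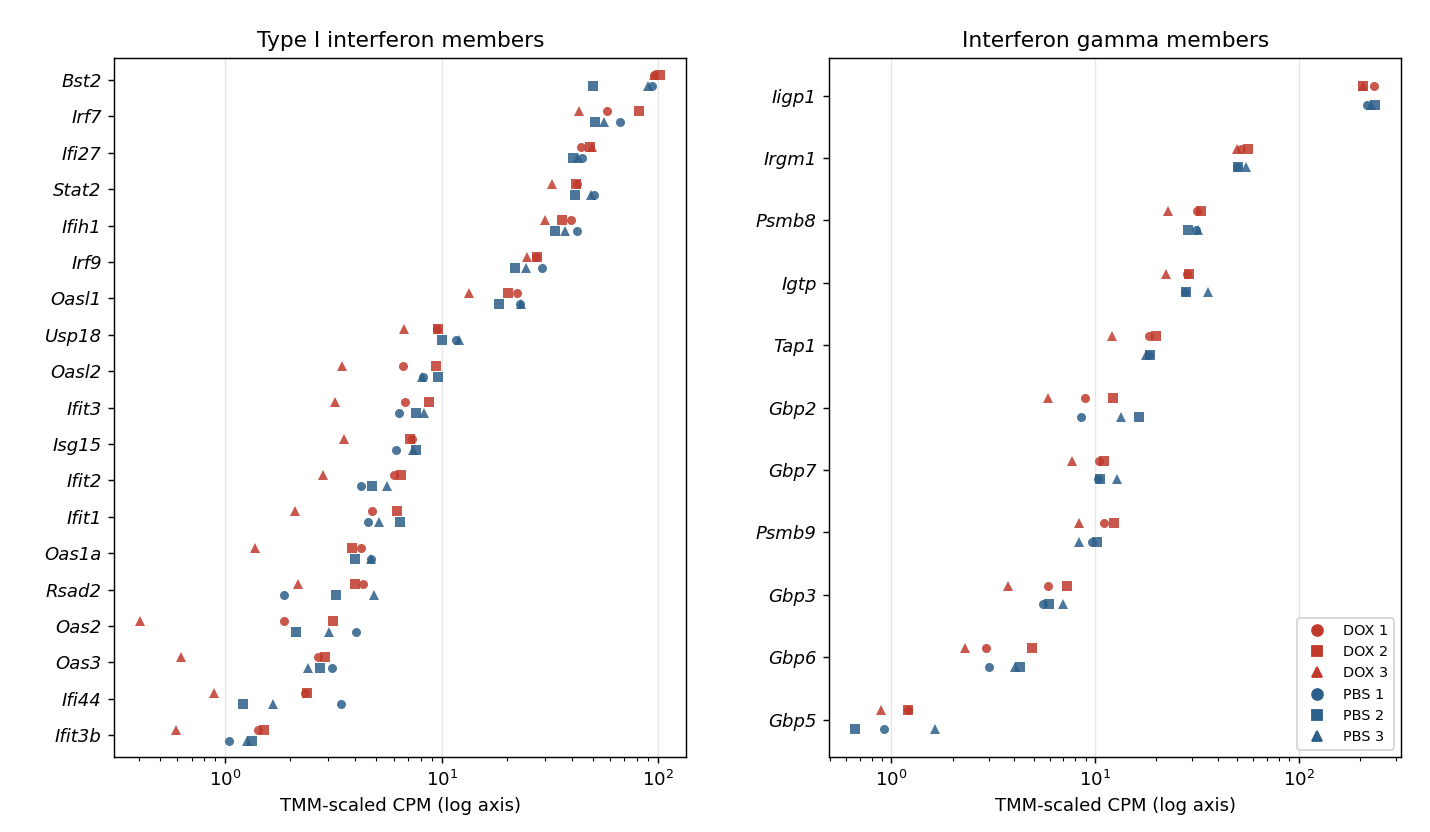
TMM-scaled CPM (log axis) of each member in the 6 libraries, type I members on the left and interferon gamma members on the right, DOX points in red above PBS points in blue. DOX replicate 3 (red triangles) lies to the left of the other libraries for most members below about 10 CPM, while Bst2, Ifi27, Iigp1 and Irgm1 differ little between DOX libraries.

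Among the interferon gamma members, the immunity-related GTPases, which attack the vacuoles of intracellular parasites in mice, included Iigp1, the member of the class with the highest level per length (FPKM). Iigp1 stood at 234, 208 and 207 CPM in DOX, against 218, 238 and 227 CPM in PBS. The groups overlapped, and the 95% interval of its log2 fold change was -0.31 to 0.16 (adjusted p = 0.831). Irgm1, a regulator of the other GTPases and of autophagy, had 52.0, 56.6 and 49.7 CPM in DOX, against 50.1, 50.5 and 55.4 CPM in PBS, with an interval of -0.18 to 0.23. Igtp, also called Irgm3, had 28.4, 28.9 and 22.3 CPM in DOX, against 27.7, 27.9 and 35.9 CPM in PBS. Its values were close in 4 of the 6 libraries, with DOX replicate 3 below them and PBS replicate 3 above.

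The guanylate-binding proteins, GTPases that coat microbes and their vacuoles, were the other GTPase family of the class. Gbp2 had 8.94, 12.2 and 5.88 CPM in DOX, against 8.51, 16.4 and 13.4 CPM in PBS, which gave the most negative log2 fold change of the class, -0.50 (SE 0.30, adjusted p = 0.610). DOX replicates 1 and 2 still lay inside the PBS range. Gbp3 had 5.90, 7.29 and 3.75 CPM in DOX, against 5.54, 5.93 and 6.95 CPM in PBS, and Gbp7 had 10.4, 11.1 and 7.72 CPM in DOX, against 10.3, 10.6 and 12.9 CPM in PBS. Gbp6 spanned 2.29 to 4.90 CPM in DOX and 3.02 to 4.30 CPM in PBS. Gbp5, which in human cells promotes inflammasome assembly, had the lowest level per length (FPKM) of the class and stood at 0.891 to 1.21 CPM in DOX and 0.665 to 1.63 CPM in PBS, and its lowest library was PBS replicate 2. Their adjusted p-values were 0.610 to 0.986.

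Psmb8 and Psmb9 replace the catalytic subunits Psmb5 and Psmb6 of the ordinary proteasome in the immunoproteasome, and Tap1 carries the resulting peptides to class I molecules. Psmb8 had 31.8, 33.1 and 22.8 CPM in DOX, against 31.2, 28.6 and 32.1 CPM in PBS. Psmb9 had 11.02, 12.3 and 8.34 CPM in DOX, against 9.69, 10.2 and 8.34 CPM in PBS, so that DOX replicate 3 and PBS replicate 3 were equal to the digits shown. Tap1 had 18.3, 19.9 and 12.1 CPM in DOX, against 18.3, 18.6 and 17.9 CPM in PBS. For all 3 genes DOX replicates 1 and 2 were at or above the PBS mean, and DOX replicate 3 was at or below the lowest PBS library. The 3 genes lie together on chromosome 17 (34181987 to 34201454), and Psmb9 and Tap1 overlap on opposite strands in the annotation.

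Relative to its ordinary counterpart, each immunoproteasome subunit gave the same picture. The FPKM ratio of Psmb8 to Psmb5 was 0.225, 0.207 and 0.122 in DOX replicates 1, 2 and 3, against 0.228, 0.202 and 0.223 in PBS replicates 1, 2 and 3. The ratio of Psmb9 to Psmb6 was 0.0942 ± 0.0209 in DOX and 0.0963 ± 0.00991 in PBS (SD, n = 3 each), and that of Psmb10, the third induced subunit, to Psmb7 was 0.280 ± 0.0617 in DOX and 0.336 ± 0.0281 in PBS. The groups overlapped for all 3 ratios, and DOX replicate 3 was the lowest library in each. The 14 constitutive subunits went the other way in that library, whose TMM factor was the lowest. All 14 had their highest CPM in DOX replicate 3, against 21.2% of all genes tested. Their log2 fold changes were all positive, with a median of 0.14, and 0 of 14 passed (lowest adjusted p = 0.490, Psmb6); scaled by library size only 9 of 14 were positive, and in either fit of log2 FPKM 8 of 14. All 14 were above the median of all genes under each of these scalings, and 13 of 14 were without DOX replicate 3, where their median was 0.05.

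The type I and interferon gamma classes were then set side by side. The median log2 fold change was -0.21 for the 19 type I members and -0.12 for the 11 interferon gamma members, an order that turned with log2(FPKM + 1) values (-0.20 and -0.21), beside -0.02 for all genes tested. Negative values were 13 of 19 and 8 of 11 (21 of 30 in all, 70%), against 53.0% of all genes. The mean log2 CPM of the type I members was 3.31, 3.44 and 2.42 in DOX replicates 1, 2 and 3, against 3.35, 3.18 and 3.36 in PBS replicates 1, 2 and 3. That of the interferon gamma members was 3.83, 4.0 and 3.42 in DOX, against 3.75, 3.86 and 4.01 in PBS. DOX replicates 1 and 2 were within or just above the PBS range for type I members and within it for interferon gamma members, and DOX replicate 3 was below both ranges. The difference between the classes, type I minus interferon gamma, was -0.69 ± 0.27 in DOX and -0.58 ± 0.15 in PBS (SD, n = 3 each), and the DOX minus PBS value of -0.12 was smaller than either SD. Without DOX replicate 3 the medians were 0.04 for type I and 0.07 for interferon gamma members, and the difference of differences was 0.04. Without PBS replicate 1 that last value was -0.03, without DOX replicate 1 it was -0.20, and without DOX replicate 2 it was -0.18. The type I median was -0.33 without DOX replicate 1, and the interferon gamma median was -0.25 without DOX replicate 2 and -0.07 without PBS replicate 3.

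**Figure D4:**
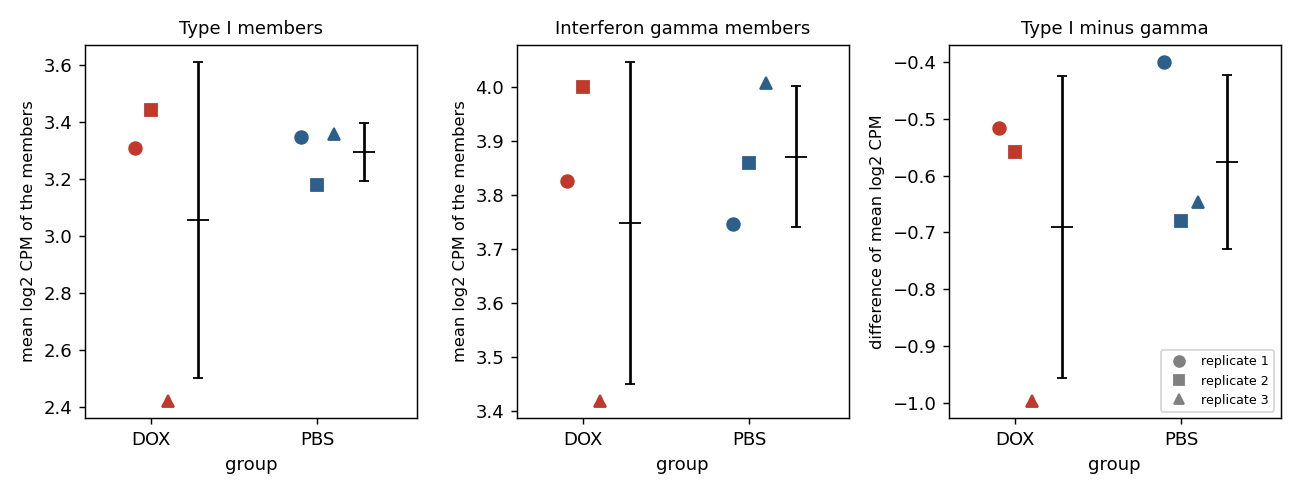
Mean log2 CPM of the 19 type I members, of the 11 interferon gamma members, and their difference, for each library, with DOX left of PBS and black bars for the mean and SD of 3 libraries. DOX replicate 3 has the lowest value in all 3 panels (2.42, 3.42 and -0.998), and the other 5 span 3.18 to 3.44, 3.75 to 4.01 and -0.68 to -0.40.

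How far DOX replicate 3 stood from the other DOX libraries is given here as a description of 1 library with no test. Its log2 ratio to the mean of DOX replicates 1 and 2 had a median of -1.03 over type I members, with 14 of 19 at -0.5 or lower. Over interferon gamma members the median was -0.49, with 5 of 11 at -0.5 or lower. The wider lists lay closer to each other, with a median of -0.44 over 46 other type I induced genes (18 at -0.5 or lower, 39.1%) and -0.39 over 31 other gamma induced genes (13 at -0.5 or lower, 41.9%). All genes tested had a median of -0.02, with 15.3% at -0.5 or lower, and the constitutive proteasome genes had 0.17. The ratio ranged from -2.63 for Oas2, -2.17 for Oas3 and -1.56 for Oas1a to 0.09 for Ifi27. Members with an ISRE core had a median of -0.85 (15 members) and those with a promoter but no such core -0.67 (10 members).

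Markers of cell types other than hepatocytes were read beside these values. In DOX replicates 1, 2 and 3, the 8 macrophage markers summed to 902, 744 and 692 CPM, against 813, 673 and 770 CPM in PBS replicates 1, 2 and 3. The 6 cholangiocyte markers summed to 234, 206 and 111 CPM in DOX, against 267, 347 and 244 CPM in PBS. All 3 DOX sums were below all 3 PBS sums, with DOX replicate 3 the lowest. Much of this sum came from 1 marker, with a mean of 159 CPM over the 6 libraries. T cell markers summed to 1.94 to 6.11 CPM in DOX and 2.40 to 3.42 CPM in PBS, NK cell markers to 1.48 to 3.13 CPM in DOX and 1.51 to 2.91 CPM in PBS, and B cell markers to 0.297 to 0.454 CPM in DOX and 0.302 to 0.600 CPM in PBS. Each of these 3 lists was lowest in DOX replicate 3, as were the conventional dendritic cell and monocyte lists. Of the 6 plasmacytoid dendritic cell markers, 5 were below the count filter. Neutrophil markers summed to 11.4 to 18.7 CPM in DOX and 13.4 to 27.0 CPM in PBS, and stellate cell markers to 120 to 255 CPM in DOX and 94.7 to 223 CPM in PBS. The low lymphocyte counts leave their sums imprecise. In none of the 12 marker lists did a gene pass between DOX and PBS, no marker was at 0 in all libraries, and the part of these cells in the member values was not tested.

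Of 21 interferon genes on the list, Ifng and Ifna7 were found in the table, and the other 19, Ifnb1, Ifnl2 and Ifnl3 among them, were not analysed here. Ifng had 0, 2 and 0 counts in DOX replicates 1, 2 and 3, against 1, 2 and 0 counts in PBS replicates 1, 2 and 3, and Ifna7 had 1 count in all. A count of 0 allows up to 3 counts, or 0.073 to 0.0914 CPM, so a difference in these 2 genes was not detectable at this depth.

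Receptors and kinases were well covered except for Ifnlr1, with 23 to 69 counts per library, and 0 of 9 passed. Ifnar1 stood at 39.5 ± 3.45 CPM in DOX and 44.5 ± 4.99 CPM in PBS, and Ifnar2 at 72.3 ± 4.69 CPM in DOX and 69.1 ± 1.88 CPM in PBS (SD, n = 3 each). The groups also overlapped for the interferon gamma receptor chains, with Ifngr1 at 49.99 ± 11.3 CPM in DOX and 53.5 ± 8.60 CPM in PBS and Ifngr2 at 25.5 ± 2.06 CPM in DOX and 26.7 ± 4.05 CPM in PBS. The smallest p of the list was that of Tyk2, the kinase bound to Ifnar1 (log2 fold change 0.18, SE 0.11, adjusted p = 0.596), followed by Ifnar1, Il10rb and Jak2.

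Of 10 transcription factors, 0 passed and 1 had an unadjusted p under 0.05, a share close to the 9.9% of all genes. That was Irf2, an antagonist of Irf1 at the same sites, with 45.5, 37.9 and 39.9 CPM in DOX, against 36.5, 26.6 and 33.9 CPM in PBS. All 3 DOX libraries were above the PBS libraries (groups did not overlap for 16.9% of all genes), and the log2 fold change of 0.34 (SE 0.13) did not pass (adjusted p = 0.467). Irf1, an early factor induced by interferon gamma, stood at 29.5 ± 1.62 CPM in DOX and 30.7 ± 1.79 CPM in PBS (SD, n = 3 each). Irf3, Batf2 and Stat3 came next by p and did not pass (adjusted p from 0.621 to 0.657).

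Of 16 nucleic acid sensors and their adaptors tested, 0 passed, and 2 adaptors had an unadjusted p under 0.05, a share close to the 9.9% of all genes. Ticam1, the adaptor of Tlr3, had 21.5, 18.4 and 16.4 CPM in DOX, against 21.8, 24.0 and 26.6 CPM in PBS (log2 fold change -0.36, SE 0.13, adjusted p = 0.433). Mavs, the mitochondrial adaptor of Ifih1, had 60.7, 65.0 and 73.4 CPM in DOX, against 74.9, 80.1 and 90.6 CPM in PBS (log2 fold change -0.30, SE 0.11, adjusted p = 0.457). For both, all DOX libraries were below all PBS libraries, where 16.9% of all genes had groups that did not overlap, and for Mavs DOX replicate 3 was the highest of its group. Tlr3 and Dhx58 followed (adjusted p = 0.629 and 0.642). Among 11 negative regulators 0 passed, the smallest p-values being those of Cish, Socs3, Irf2bp2 and Trim24 (adjusted p = 0.500 to 0.725).

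Further genes known to be induced by interferons were read in the same way. Over all genes tested, 0.0291% passed, the median log2 fold change was -0.02, and 25.6% were lowest in DOX replicate 3. Of 46 tested on the type I side 0 passed, the median log2 fold change was -0.11, and 36 were lowest in DOX replicate 3. Znfx1, Parp14, Samd9l and Herc6 had the smallest p (adjusted p = 0.500 to 0.577). Of 31 on the interferon gamma side 0 passed, the median was -0.08, and 18 were lowest in DOX replicate 3. The GTPase gene Tgtp1 came first, at -0.57 on the log2 scale (SE 0.25, adjusted p = 0.500), followed by Psme1, Serping1 and Psme2. The chemokine gene Cxcl9, a typical interferon gamma target, stood at 8.95 ± 2.46 CPM in DOX and 7.52 ± 3.69 CPM in PBS (adjusted p = 0.829). Its relative Cxcl10 stood at 5.19 ± 1.82 CPM in DOX and 4.30 ± 0.695 CPM in PBS (adjusted p = 0.760).

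Per length, on the authors' FPKM scale, the members spread over a wide range of levels. Bst2 was at the top with 116 ± 10.5 FPKM in DOX and 102 ± 34.1 FPKM in PBS (SD, n = 3 each). Iigp1 followed with 59.3 ± 5.57 FPKM in DOX and 68.5 ± 1.44 FPKM in PBS. FPKM are scaled to the library total without TMM factors, and in CPM the Iigp1 groups overlapped (log2 fold change -0.08, SE 0.10). Ifi27 (34.3 ± 2.40 FPKM in DOX and 33.8 ± 2.72 FPKM in PBS) and Irf7 (30.5 ± 11.3 FPKM in DOX and 31.6 ± 5.03 FPKM in PBS) were next and did not differ beyond their spread, and then came Psmb8 with 22.99 ± 5.47 FPKM in DOX and 26.2 ± 2.40 FPKM in PBS. At the low end, Gbp5, Oas3, Oas2 and Ifit3b had group means between 0.350 and 0.789 FPKM and were not separable by their spread. In counts, 5 members had under 50 in at least 1 library.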

How the data were processed

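Per the labels' protocols, liver RNA was column-purified and SMARTER mRNA-Seq libraries were built from it. Builds named in the submitters' processing notes are GRCm38 and mm10. The sources used here give no aligner, counter, annotation or strand setting. Raw read counts per gene were deposited by the authors, with FPKM values of the same 6 libraries. Within each gene, the deposited FPKM were proportional to counts divided by the library total for 18913 of 18913 genes compared (relative tolerance 1e-05). Gene lengths were not used in this check.

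The counts were tested for DOX against PBS with edgeR 4.0.16 in R 4.3.3 (filterByExpr, TMM, quasi-likelihood test, legacy = TRUE, no block), with Benjamini-Hochberg adjustment over 13725 genes and a threshold of 0.05. CPM are deposited counts scaled to library size with TMM factors, and mean log2 CPM use a prior count of 2. Standard errors come from the F statistic. Each library was kept as 1 sample, since no pair of replicates came within sampling noise (chi-square over its degrees of freedom 41.9 to 132). The members and lists were chosen with earlier results of these data known. The text names all 32 members, the genes of smallest p (up to 4) from each list, and a fixed set of ligands, receptors and key factors whatever their result, except for 1 gene that is not reported here. Of 276 list entries, 30 were not matched in the table. Coordinates are from the GENCODE M21 annotation of GRCm38. In it, 12 of the 30 members overlap another gene, 8 on the opposite strand, so that reads could not be told apart if strand was not used.

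The procedure was tested on simulated counts. Alternatives were RLE and library-size scaling, DESeq2 1.42.0, limma-voom and limma on log2(FPKM + 1) or log2(FPKM + 0.1) (limma 3.58.1), other filters, the replicate block and leaving out each library; a fit with legacy = FALSE was chosen after the data were seen.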

Additional observations from a re-analysis of the deposited data

How the results depend on the processing

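None of the 30 members and none of the other pathway genes passed the threshold under any of the 16 alternatives, and the lowest adjusted p of a member in any of them was 0.314 (Usp18, scaled by library size only). The count of all genes changed, 4 with 3 higher and 1 lower, was 176 with DESeq2 (128 higher, 48 lower), 61 without a filter on low counts (45 and 16), 2 with limma-voom (1 and 1) and 5 scaled by library size only (3 and 2); the cause was not tested. Leaving out 1 library gave 3 to 4. The type I median ranged from -0.33 to 0.04 and the interferon gamma median from -0.25 to 0.07 when 1 library was left out, positive without DOX replicate 3. Scaling by library size moved the median of all genes to -0.15 and the log2(FPKM + 0.1) values moved it to -0.14. Relative to these, the type I medians were -0.19 and -0.23 and the interferon gamma medians -0.09 and -0.14. With log2(FPKM + 1) the order of the classes turned, at -0.20 for type I and -0.21 for interferon gamma members. Among members, 17 of 30 changed sign in at least 1 alternative, 11 of them without DOX replicate 3.

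A fit with the replicate block called 21 genes (17 higher, 4 lower) and 0 members. The labels give the replicate number no meaning, so the numbers were not taken to pair the samples. The correlation of deviations from the group means was 0.192, 0.13 and 0.01 between libraries sharing a number. For DOX replicates 1 and 2 this was the highest correlation with any PBS library, so pairing remains possible. DOX replicate 3 did not correlate best with PBS replicate 3 but with PBS replicate 2 (0.057). Depth limits Ifng, Ifna7 and lymphocyte markers more than the members, whose lowest count in a library was 15.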
